A study of Mus musculus with 8 samples.

Results

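The genes described here are 41 mouse genes of the interferon response: 32 interferon-induced effectors and RNA sensors, 5 interferon regulatory factors and 4 interferon receptor genes. The rule that selects them goes by gene name and uses no measured value, but it was set with earlier results of these data known. They made up 41 of the 27179 rows of a gene count table, and all 41 were found by symbol. The table holds RNA sequencing of group 3 innate lymphoid cells (ILC3s), lymphocytes that act early at mucosal surfaces and secrete interleukin 22. CCR6+ ILC3s were sorted from the large intestine of C57BL/6 mice at steady state, from 8 mice with 1 library each, as CD45-dim, CD90-high, CD127+ cells without markers of T, B, NK or myeloid cells. The control group, labelled WT, was Zbtb46f/f (floxed alleles, no Cre; called sufficient here, replicates 1 to 4). The group labelled Zbtb46 KO carried the same floxed alleles and a Cre transgene active in ILC3s (called deficient, replicates 5 to 8). Both groups carry the floxed alleles and only the deficient group carries Cre, so deletion and the Cre transgene cannot be told apart. The Cre is also active in other lymphocytes, including developing T cells, so deletion in these mice is not limited to ILC3s. Age was not given in the sources used here.

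Interferons are cytokines, of which type I interferon is released by cells that sense viral or bacterial nucleic acid. Type I interferon binds the receptor pair IFNAR1 and IFNAR2 and acts through a complex that contains IRF9 on interferon-stimulated response elements (ISREs). Type II interferon, IFN-gamma, binds IFNGR1 and IFNGR2 and acts on gamma-activated sites (GAS). Many interferon-induced genes are silent or low in resting cells and are switched on within hours of a signal, while receptors and some regulatory factors are made constitutively.

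The elements that define the family are shown first because the genes below fall into those that hold one and those that do not. RefSeq promoter windows of GRCm38.p6, from 250 bases before to 50 after each annotated start, were available for 32 of the 41 genes. The letters GAAA, any 2 bases and again GAAA, searched on both strands as the ISRE core, occurred in 16 of these 32 genes (50%) and in 1079 of 27025 genes with a window (3.99%), or 3.44% of all 32851 windows. The letters TTCNNNGAA, searched as the GAS core and identical on both strands, occurred in 12 of the 32 genes (37.5%) and in 2582 of the 27025 (9.55%), or 8.3% of windows. 6 genes held both. Stretches around the matches of 8 genes, and the matching stretch of Ifngr1, which holds neither, are printed 5′ to 3′ on the gene's own strand with the matches in capitals.
Isg15 (chr4:156200837-156200916, minus strand), 3 overlapping ISRE matches: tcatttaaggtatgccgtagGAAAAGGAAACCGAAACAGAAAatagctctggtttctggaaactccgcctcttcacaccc
Ifit1 (chr19:34640765-34640844, plus strand), 2 ISRE matches: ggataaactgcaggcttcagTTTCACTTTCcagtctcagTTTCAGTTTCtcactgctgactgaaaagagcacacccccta
Rsad2 (chr12:26456513-26456592, minus strand), 1 ISRE match: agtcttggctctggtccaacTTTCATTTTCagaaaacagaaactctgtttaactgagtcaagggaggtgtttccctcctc
Oas3 (chr5:120777675-120777754, minus strand), 1 ISRE match: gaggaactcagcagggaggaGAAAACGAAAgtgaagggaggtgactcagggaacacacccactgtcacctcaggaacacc
Bst2 (chr8:71537549-71537628, minus strand), 1 GAS match overlapping the first of 2 ISRE matches: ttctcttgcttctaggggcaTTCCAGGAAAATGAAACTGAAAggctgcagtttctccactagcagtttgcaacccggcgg
Gbp2 (chr3:142620583-142620662, plus strand), 1 ISRE match: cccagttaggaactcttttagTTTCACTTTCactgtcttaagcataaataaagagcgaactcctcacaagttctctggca
Gbp7 (chr3:142530210-142530312, plus strand), 2 GAS matches and 1 ISRE match: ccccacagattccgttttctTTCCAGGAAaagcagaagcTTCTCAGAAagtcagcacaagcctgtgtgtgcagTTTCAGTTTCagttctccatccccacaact
Irf1 (chr11:53769904-53769983, plus strand), 1 GAS match: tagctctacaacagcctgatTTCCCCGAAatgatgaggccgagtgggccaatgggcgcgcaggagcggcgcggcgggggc
Ifngr1 (chr10:19591869-19591948, plus strand), no match: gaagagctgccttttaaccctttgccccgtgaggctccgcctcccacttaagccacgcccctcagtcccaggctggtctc

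The motif did not sort the genes by level. Of the 16 genes with an ISRE match, 5 had a median below 1 CPM (counts scaled to the library total) over the 8 libraries, and of the 16 without one, 3 did. Oas3 and Rsad2 hold a match and were at or near 0 CPM in most libraries, whereas Bst2, Isg15, Ifit1 and Gbp2 hold matches and were read in all or nearly all. A match is a run of letters and no evidence of binding.

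Library totals ran from 25328231 to 33760743 counts, 10668 to 14410 genes had a count, and a count of 0 allows a level of up to 0.0889 to 0.118 CPM, for counting error only. Zbtb46 was lower in all 4 deficient libraries, at 0.124 to 4.78 CPM against 7.95 to 88.0 CPM (exact two-sided permutation p = 0.0286, the smallest that 4 against 4 libraries allow). Its log2 fold was -4.31 (SE 1.42). In edgeR's quasi-likelihood test its unadjusted p was 0.0124 and its adjusted p 0.885, so that test did not call the deleted gene. Summed ILC3 markers were 25560 to 37720 CPM in sufficient and 23410 to 29080 CPM in deficient libraries, mostly Il22, and Ccr6 was at 72.1 to 336 CPM. Markers of other cells were uneven between libraries. Summed macrophage and neutrophil markers were 332 CPM in deficient replicate 5 and 725 CPM in deficient replicate 7, against 0.901 to 43.6 CPM in the other 6 libraries. In both, most of the sum was S100a8 (236 and 313 CPM) and S100a9 (93.2 and 355 CPM). In deficient replicate 5, Adgre1 was at 2.63 and Lyz2 at 0.113 CPM, and Csf1r, Cd68, C1qa and Ly6g were at 0. In deficient replicate 7, Lyz2 was at 35.0, Cd68 at 8.09, C1qa at 7.28 and Adgre1 at 6.20 CPM. Csf1r was at 0.124 CPM and Ly6g at 0 there. Adgre1 did not exceed 0.0376 CPM in the other 6 libraries. Summed epithelial markers were 1340 CPM in sufficient replicate 2 and at most 28.3 CPM elsewhere, and summed stromal markers were highest in sufficient replicate 1 (764 CPM) and deficient replicate 7 (413 CPM). Bulk libraries cannot tell fewer cells of a type from less RNA per cell.

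Detection differed widely within the family. 17 of the 41 genes had at least 1 CPM in all 8 libraries: all 4 receptor genes, Irf1, Irf2, Irf3 and Irf9, the guanylate-binding protein genes Gbp2, Gbp4 and Gbp7, and Ifit1, Bst2, Trim25, Parp14, Samhd1 and Ifitm2. At the other end, Ifit2, Mx2, Oas2, Oas3 and Gbp5 reached 1 CPM in no library, and Ifit3, Mx1, Rsad2 and Oasl1 in 1 library each. The remaining 15 genes lay between, from 2 libraries for Ifi44 and Oas1a to 7 for Isg15, Zbp1, Oasl2, Ddx58 and Ifitm1.

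**Figure D1:**
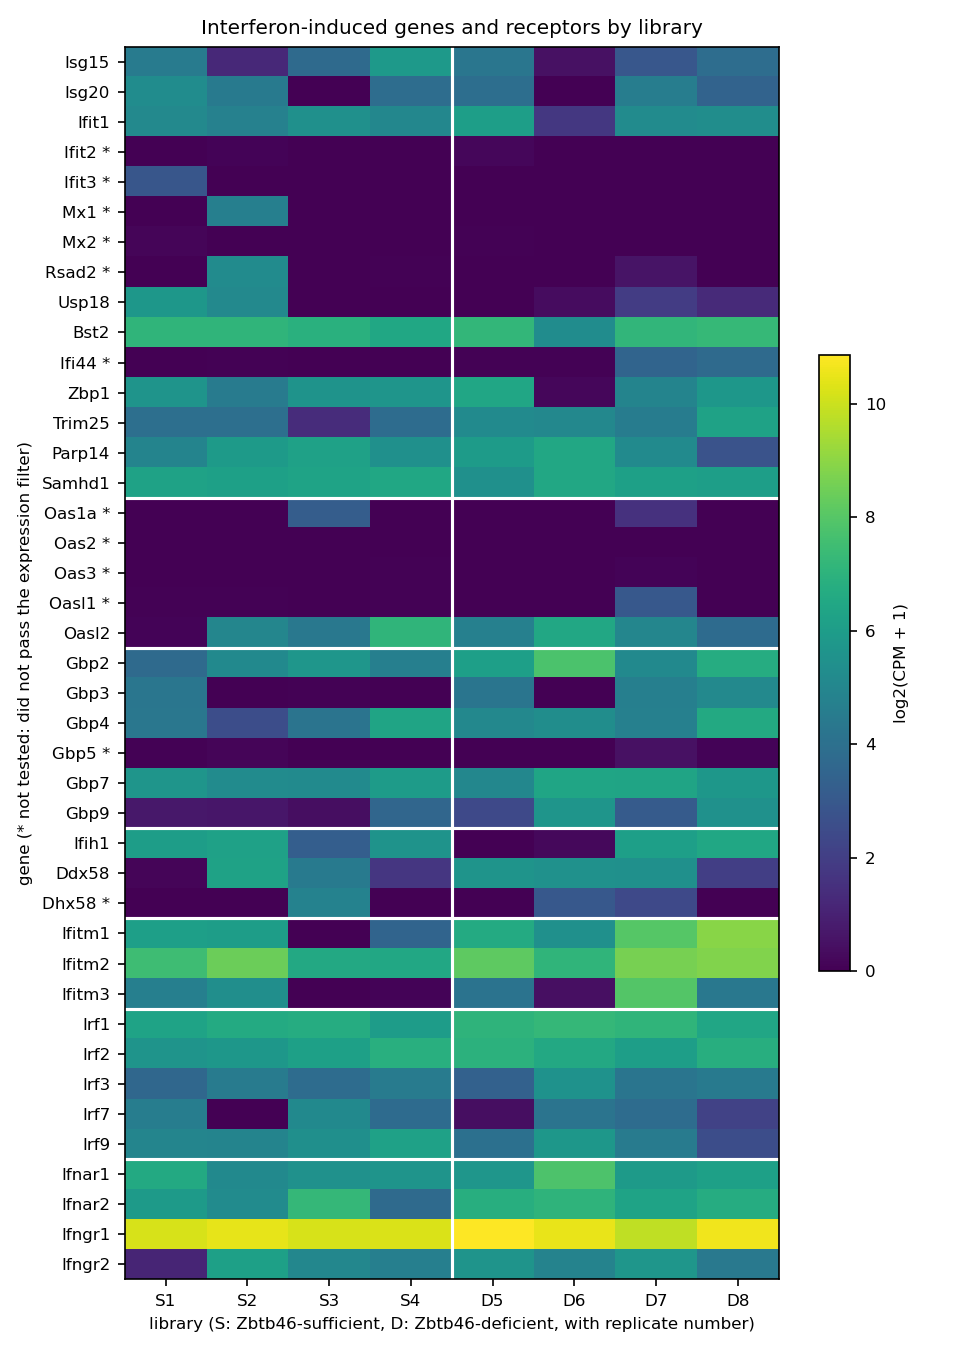
Level of each of the 41 genes (rows, grouped by role and separated by white lines) in each library (columns; S1 to S4 Zbtb46-sufficient, D5 to D8 Zbtb46-deficient), as log2(CPM + 1) from dark (low) to bright (high). Ifngr1 is bright in all 8 libraries, Oas2 is at 0 in all 8, and genes marked with a star are the 12 that did not pass the expression filter.

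Levels were compared between genes per kilobase of exon (RPKM), over all 8 libraries, for the 40 genes with an annotated length. Ifngr1, the ligand-binding chain of the IFN-gamma receptor, stood first at 634 ± 138 RPKM (SD, n = 8), with a range from 428 to 876. Ifitm2, which encodes a membrane protein that restricts virus entry, followed at 373 ± 211 RPKM, and Ifngr1 was above it in 7 of 8 libraries. Bst2 (tetherin, which holds budding virions at the cell surface) had 150 ± 48.5 RPKM and was below Ifitm2 in 7 of 8 libraries. Below these the neighbours overlapped: Ifitm1 at 118 ± 151 RPKM exceeded Ifitm3 at 63.9 ± 122 RPKM in 5 of 8 libraries, and Ifitm3 exceeded Irf2 at 34.1 ± 11.9 RPKM in 3 of 8. Irf1 had 31.6 ± 9.22 RPKM, Gbp2 27.2 ± 26.4 RPKM and Ifnar2 26.9 ± 14.8 RPKM, and their order is not set beyond their spread. Ifngr1 therefore stood well above its partner Ifngr2, at 9.29 ± 5.80 RPKM, and above both type I receptor chains.

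**Figure D2:**
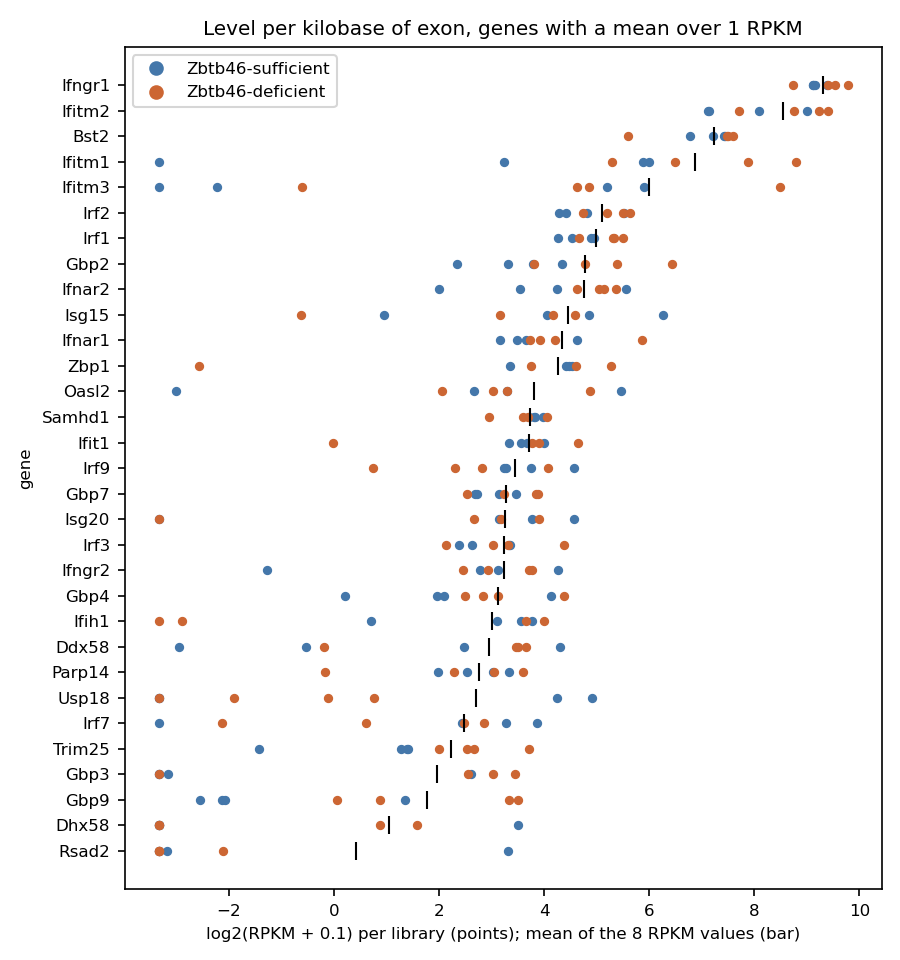
Level per kilobase of exon on a log axis, log2(RPKM + 0.1), for the genes with a mean over 1 RPKM, one row per gene in the order of their means; points are libraries (blue sufficient, orange deficient) and bars are the log2 of the mean of the 8 RPKM values plus 0.1. Ifngr1 (634 RPKM), Ifitm2 (373 RPKM) and Bst2 (150 RPKM) lead, and points at the left edge are libraries at 0.

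Spread between libraries also differed between genes. The coefficient of variation, averaged over the groups, was smallest for Ifngr1 (18.6%), Samhd1 (18.8%) and Irf1 (22.3%), and largest for Ifitm3 (144%), Gbp3 (137%) and Gbp9 (129%). Its median was 65.4% over the tested genes of the family 71.8% over all tested genes and 59.1% over the 6341 tested genes within the same range of mean CPM. Genes also dropped out of single libraries. Of the 33 genes of the family that reached 10 CPM in some library, 13 (39.4%) had 3 counts or fewer in another, against 47.4% of all genes that reached 10 CPM. Such gaps were common in all genes of these low-input libraries, and not more so in the family.

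The comparison of the design asks which transcripts differ between Zbtb46-deficient and Zbtb46-sufficient CCR6+ ILC3s. None of the 29 genes of the family that passed the expression filter passed the test, with an adjusted p of 0.9999 for each in edgeR's quasi-likelihood test (Benjamini-Hochberg over 8878 tested genes). The same test called 0% of all tested genes in either direction, and so not Zbtb46 either. At an unadjusted p under 0.05 there was 1 gene of the 29, Gbp2, against 364 of 8878 tested genes (4.1%). limma-voom also called 0 of the 29. DESeq2 on all genes with a count called 1 gene of the family, Ifi44, against 2.09% of 11478 genes called higher and 1.17% called lower. On the genes tested by edgeR it called none of the family, against 0.59% higher and 0.506% lower. Fitted values were higher in deficient libraries for 18 of the 29 genes and lower for 11, with a median log2 fold of 0.44, beside 50.9% higher and a median of 0.02 over all tested genes. That median was 0.14 without sufficient replicate 1 and 0.17 without deficient replicate 5. Below, folds are deficient over sufficient.

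**Figure D3:**
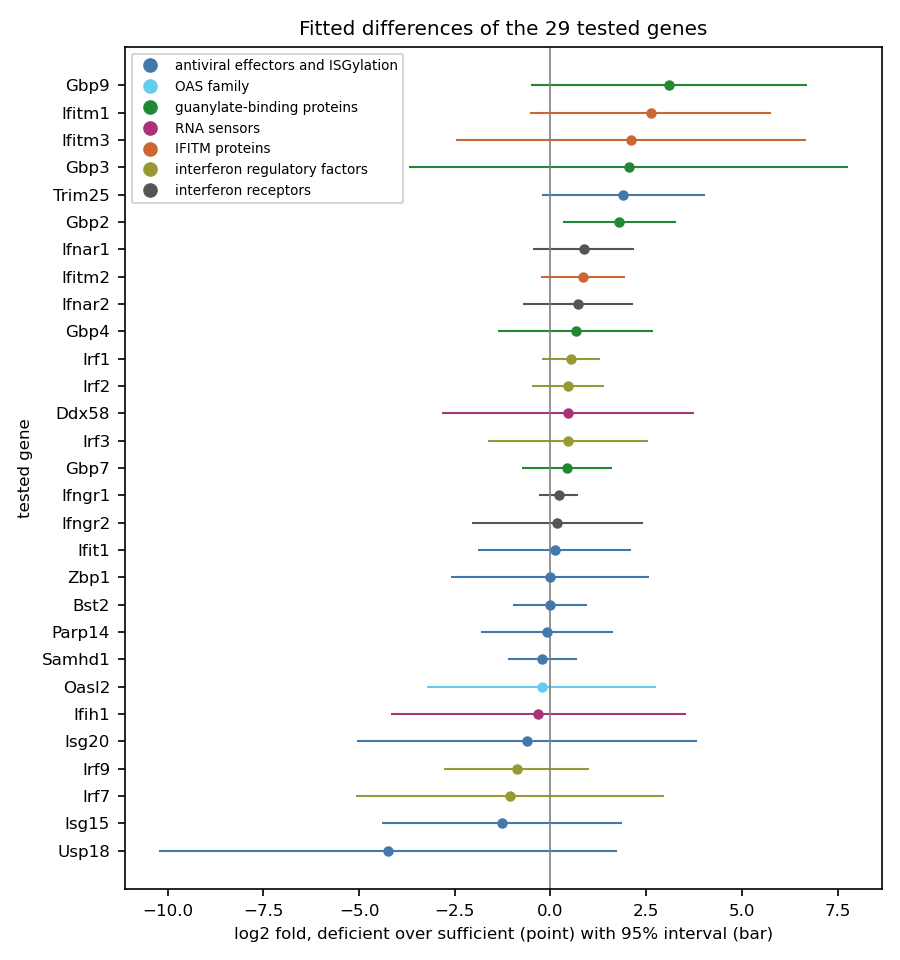
Fitted log2 fold, deficient over sufficient, of the 29 tested genes (points) with 95% intervals (bars), coloured by role and sorted by fold. Only the interval of Gbp2 (0.32 to 3.27) leaves out 0, before any adjustment for the number of genes tested, and the widest belongs to Usp18 (-10.22 to 1.73).

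Among the receptor genes, Ifngr1 was the most abundant gene of the family and among the most even. It had 1167, 1419, 1170 and 1206 CPM in sufficient replicates 1 to 4 and 1851, 1430, 904 and 1566 CPM in deficient replicates 5 to 8. Deficient replicates 5, 6 and 8 were above every sufficient library and deficient replicate 7 was below every one, so the groups overlapped. The means were 1241 ± 120 and 1438 ± 397 CPM (SD, n = 4 each), a fold of 1.16 with a 95% interval from 0.816 to 1.65. That interval leaves out a doubling or halving of Ifngr1 in either direction.

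Its partner chain Ifngr2, which couples the receptor to JAK2, had 1.16, 71.0, 31.9 and 25.1 CPM in sufficient and 48.2, 27.8, 50.5 and 20.01 CPM in deficient libraries. The sufficient values enclosed all deficient ones, and the log2 fold of 0.18 (SE 1.00) was -0.22 without sufficient replicate 1. Ifnar1, a chain of the type I interferon receptor, had 96.7, 34.7, 43.6 and 48.8 CPM against 51.6, 227, 58.9 and 71.8 CPM. Its mean of 102 ± 83.4 CPM in deficient libraries, against 55.9 ± 27.8 CPM, rested on replicate 6: the log2 fold was 0.87 (SE 0.59) with it and 0.11 without it. Ifnar2, the chain that binds type I interferon with high affinity, had 59.6, 36.7, 149 and 12.5 CPM against 111, 131, 78.6 and 105 CPM. The deficient values were close together and sufficient replicate 3 lay above them all (log2 fold 0.72, SE 0.65, and 1.56 without that library). All 4 receptor genes had fitted folds above 0, but 1 of the 4 was below 0 without sufficient replicate 1 and likewise without deficient replicate 7.

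**Figure D4:**
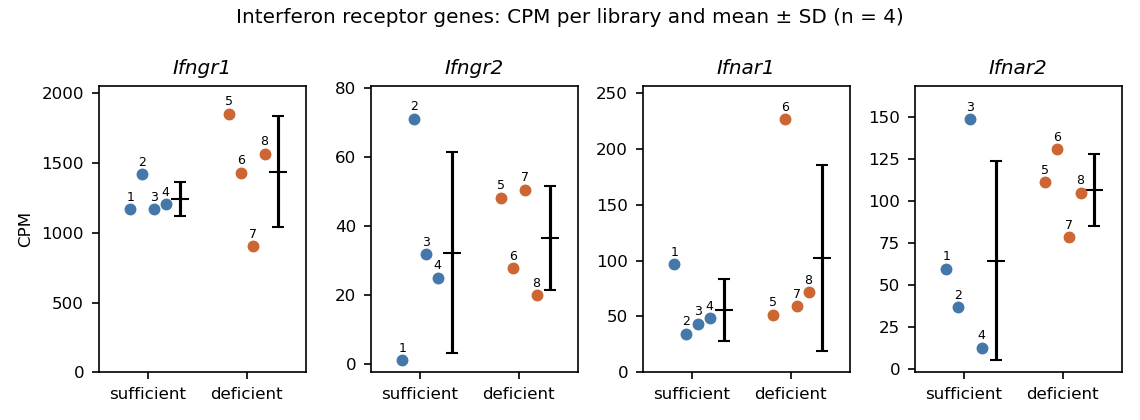
CPM of the 4 interferon receptor genes in each library (points with the replicate number, blue sufficient and orange deficient) with mean ± SD (bars, n = 4 per group). Ifngr1 has an axis reaching 2000 CPM, and in every panel the groups overlap.

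The guanylate-binding proteins, large GTPases induced mainly by IFN-gamma that attack the membranes of intracellular microbes, had fitted folds above 0 for all 5 tested genes of 6, with a median log2 fold of 1.798. The signs were the same under every setting tried, and the median was 0.94 without sufficient replicate 1 and deficient replicate 6. Gbp2 (chromosome 3, 142620663 to 142638008) had 12.6, 34.5, 50.7 and 24.8 CPM in sufficient and 69.3, 217, 35.0 and 105 CPM in deficient libraries. Deficient replicates 5, 6 and 8 lay above all sufficient libraries and replicate 7 within them. The means were 30.6 ± 16.1 and 106 ± 78.9 CPM, a 3.48-fold difference with a 95% interval from 1.25 to 9.67. The unadjusted p was 0.0218 in edgeR's quasi-likelihood test with an adjusted p of 0.9999, and the exact permutation p was 0.0571. Without deficient replicate 6 the log2 fold was 1.18 in place of 1.798.

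Gbp9, a paralogue on chromosome 5, had 0.62, 0.574, 0.321 and 10.9 CPM against 4.21, 49.7, 7.75 and 44.3 CPM. Sufficient replicates 1 to 3 were below every deficient library, and sufficient replicate 4 was above deficient replicates 5 and 7. The log2 fold was 3.09 (SE 1.62, unadjusted p = 0.0851 in edgeR's quasi-likelihood test) and 5.70 without sufficient replicate 4. Gbp4 (19.0, 4.83, 17.2 and 79.6 CPM against 32.2, 39.0, 25.1 and 94.5 CPM) and Gbp7 (49.4, 36.6, 35.6 and 61.1 CPM against 31.96, 82.6, 80.2 and 52.6 CPM) overlapped widely, with log2 folds of 0.66 and 0.44. Gbp3 was read in sufficient replicate 1 (18.2 CPM) and in deficient replicates 5, 7 and 8 (17.6, 24.6 and 33.0 CPM), and at no more than 0.0357 CPM elsewhere. Gbp5 never exceeded 0.403 CPM. Summed over the 6 genes, the level was 99.9, 76.6, 104 and 176 CPM in sufficient and 155, 388, 173 and 329 CPM in deficient libraries, with the highest sufficient library above the lowest 2 deficient ones. Between 7.78% and 12.7% of the transcript sequence of Gbp4, Gbp7 and Gbp9 is shared with other genes in stretches of 50 bases, so some of their reads could have been counted for a paralogue.

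The 3 IFITM genes, a cluster on chromosome 7 whose products block fusion of enveloped viruses, also had fitted folds above 0. Ifitm1 had 69.5, 64.8, 0 and 10.2 CPM in sufficient and 97.8, 42.6, 257 and 487 CPM in deficient libraries. Deficient replicates 5, 7 and 8 exceeded all sufficient libraries and replicate 6 lay among them (36.1 ± 36.1 against 221 ± 199 CPM; log2 fold 2.61, SE 1.42; exact permutation p = 0.114). Ifitm1 had a log2 fold of 1.87 without deficient replicate 8. Ifitm2 had 178, 337, 92.5 and 91.4 CPM against 283, 138, 394 and 442 CPM. Sufficient replicate 2 was among the deficient values and deficient replicate 6 among the sufficient ones (log2 fold 0.85, SE 0.49, exact permutation p = 0.171), and the log2 fold was 1.38 without sufficient replicate 2. Of the transcript sequence of Ifitm2, 48.5% is shared with other genes, so its count is uncertain. Ifitm3 had 24.8, 40.5, 0 and 0.0779 CPM against 16.6, 0.376, 244 and 19.5 CPM, and its log2 fold went from 2.10 to -0.41 when deficient replicate 7 was left out. That library also held the highest summed macrophage and neutrophil markers (725 CPM, mostly S100a8 and S100a9) and 413 CPM of stromal markers. IFITM genes are abundant in both of those cell types, and the part these cells played in the values was not tested.

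The antiviral effectors had fitted folds of both signs. Trim25, an E3 ligase that activates the sensor RIG-I, was the single tested gene of the 29 whose groups did not overlap, against 2.26% of all tested genes higher without overlap, 2.1% lower and 4.36% in either direction. It had 14.6, 14.7, 1.57 and 13.5 CPM in sufficient and 35.9, 32.9, 22.4 and 74.8 CPM in deficient libraries. Means were 11.1 ± 6.36 and 41.5 ± 22.9 CPM, 3.74-fold apart (log2 fold 1.90, SE 0.96, 95% interval -0.23 to 4.04; unadjusted p = 0.0749 in edgeR's quasi-likelihood test; exact permutation p = 0.0286). The log2 fold was 1.46 without deficient replicate 8, the highest.

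Usp18, the protease that strips ISG15 from proteins and dampens type I interferon signalling, had the lowest fitted fold (log2 -4.24, SE 2.68, exact permutation p = 0.429). It had 53.4 and 33.6 CPM in sufficient replicates 1 and 2, 0 in sufficient replicates 3 and 4, and 0, 0.301, 2.82 and 1.46 CPM in deficient libraries. The difference thus rested on 2 libraries, and the other sufficient libraries lay below 3 of the 4 deficient ones. Those 2 libraries were also the ones with the most stromal (764 CPM, replicate 1) and epithelial (1340 CPM, replicate 2) marker reads among sufficient libraries, and the part of such cells was not tested. Isg15, the ubiquitin-like modifier itself, had 21.9, 1.39, 12.5 and 57.7 CPM against 18.1, 0.414, 6.69 and 13.6 CPM (log2 fold -1.27, SE 1.41), without a separation of the groups.

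Bst2 led the antiviral effectors per kilobase, below Ifitm2 of the IFITM genes, and had 136, 137, 118 and 87.3 CPM in sufficient and 143, 38.2, 141 and 153 CPM in deficient libraries. Replicate 6 was the lowest of all 8 and the other 3 deficient libraries the highest, and the means were 120 ± 23.2 and 119 ± 54.0 CPM, with a fold interval from 0.505 to 1.95. Samhd1, which depletes the nucleotides that viruses need, had 77.9 ± 6.39 CPM against 67.4 ± 19.8 CPM (log2 fold -0.21, SE 0.40). Ifit1, which binds viral RNA lacking a host cap, had 33.6, 26.5, 42.4 and 31.3 CPM against 65.9, 2.37, 36.2 and 39.5 CPM, with a log2 fold of 0.11. Zbp1, a sensor of Z-form nucleic acid that triggers cell death, had 22 to 49.9 CPM in sufficient libraries and 83.8, 0.150, 28.9 and 52.8 CPM in deficient ones. Deficient replicate 6 was the lowest library for Bst2, Ifit1, Isg15 and Zbp1, which is 4 of the 29 tested genes beside 16.5% of all tested genes. It was the highest library for 8 of the 29, Gbp2, Gbp9 and Ifnar1 among them, beside 19.0% of all tested genes. Isg20 and Parp14 overlapped between groups, Isg20 from 0 to 37.3 CPM and Parp14 from 5.86 to 89.4 CPM. Of the 9 tested antiviral effectors, 2 had fitted folds above 0 and 7 below with TMM scaling, 3 and 6 with RLE scaling, and 4 and 5 with upper-quartile or no scaling, so no common direction can be given.

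The antiviral genes outside the tested set were seen in isolated libraries. Mx1, a GTPase that traps viral nucleocapsids and is defective in most laboratory strains, had 24.8 CPM (606 counts) in sufficient replicate 2 and 0 counts in the other 7. Rsad2 (viperin, which makes a chain-terminating nucleotide) had 37.1 CPM in that same library and 0.496 CPM in deficient replicate 7. Sufficient replicate 2 also held 1340 CPM of epithelial markers, and the part of such cells in the reads of Mx1 and Rsad2 was not tested. Ifit3 had 165 counts, all in sufficient replicate 1, and shares 51.2% of its transcript sequence with Ifit3b. Ifi44 had 10.4 and 12.5 CPM in deficient replicates 7 and 8, and 1 count in all sufficient libraries together against 741 in the deficient ones. Scaled to library size, these counts gave a ratio of 609 (109 to 24080 by counting error, which leaves out the spread between mice), and 2 of the 4 deficient libraries held nearly all of the reads. In DESeq2 on all genes with a count, Ifi44 had an adjusted p of 0.00505. Ifit2 had 7 counts in all 8 libraries together and Mx2 had 5.

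The 2′-5′-oligoadenylate synthetases, which make the messenger that activates RNase L, were, but for Oasl2, almost unread. Oas2 had 0 counts in all 8 libraries, Oas3 had 3 counts in all, and Oasl1 had 6.97 CPM in deficient replicate 7 and 3 counts in the sufficient libraries together. Oas1a had 8.10 CPM in sufficient replicate 3 and 1.92 CPM in deficient replicate 7, and 57.6% of its transcript sequence is shared with Oas1g and other genes. Oasl2 was at 0.0775, 30.4, 19.5 and 137 CPM in sufficient and 25.1, 91.1, 30.5 and 12.7 CPM in deficient libraries, with the highest and the lowest value both in sufficient ones.

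The cytosolic RNA sensors were read unevenly, Ifih1 in 6, Ddx58 in 7 and Dhx58 in 3 of the 8 libraries at 1 CPM or more. Ifih1, which encodes MDA5, had 64.1, 73.9, 8.39 and 46.6 CPM in sufficient and 0, 0.188, 68.0 and 86.8 CPM in deficient libraries. Ddx58, which encodes RIG-I, had 0.116, 76.5, 21.1 and 2.297 CPM against 48.4, 43.3, 42.3 and 3.00 CPM. In deficient replicates 5 and 6 the one sensor was near 0 and the other above 40 CPM, and in sufficient replicate 1 the reverse held. Dhx58 (LGP2) was read in sufficient replicate 3 at 27.0 CPM and in deficient replicates 6 and 7 at 7.00 and 4.21 CPM.

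The interferon regulatory factors that bind the elements shown above had fitted folds of both signs. Irf1, which IFN-gamma induces through the GAS printed for it, had 77.1, 98.7, 103 and 63.9 CPM in sufficient and 132, 150, 135 and 84.0 CPM in deficient libraries. Deficient replicates 5 to 7 exceeded all sufficient libraries and replicate 8 did not (85.8 ± 18.6 against 125 ± 28.7 CPM; log2 fold 0.55, SE 0.34, 95% interval -0.21 to 1.30; exact permutation p = 0.0857). Irf2, which competes with IRF1 for its sites, had 48.5, 53.1, 69.9 and 115 CPM against 124, 91.5, 66.2 and 113 CPM (log2 fold 0.46, SE 0.42). Irf3, the factor that switches on the gene for interferon beta, had 11.2, 22.2, 13.4 and 21.9 CPM against 9.44, 45.5, 17.6 and 21.5 CPM. Its log2 fold of 0.45 (SE 0.94) was -0.23 without sufficient replicate 1 and deficient replicate 6.

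Irf9, the DNA-binding part of the type I complex, had 29.6, 29.1, 41.4 and 73.3 CPM in sufficient and 14.9, 52.3, 21.6 and 4.89 CPM in deficient libraries. Deficient replicates 5, 7 and 8 were below every sufficient library and replicate 6 was above 3 of them (43.3 ± 20.7 against 23.4 ± 20.4 CPM; log2 fold -0.89, SE 0.85, and -1.66 without replicate 6). Irf7, the amplifier of type I interferon production, had 22.9, 0, 34.8 and 12.7 CPM against 0.311, 17.1, 13.1 and 3.44 CPM, with a log2 fold of -1.05 (SE 1.81) that was 0.079 in limma-voom.

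**Figure D5:**
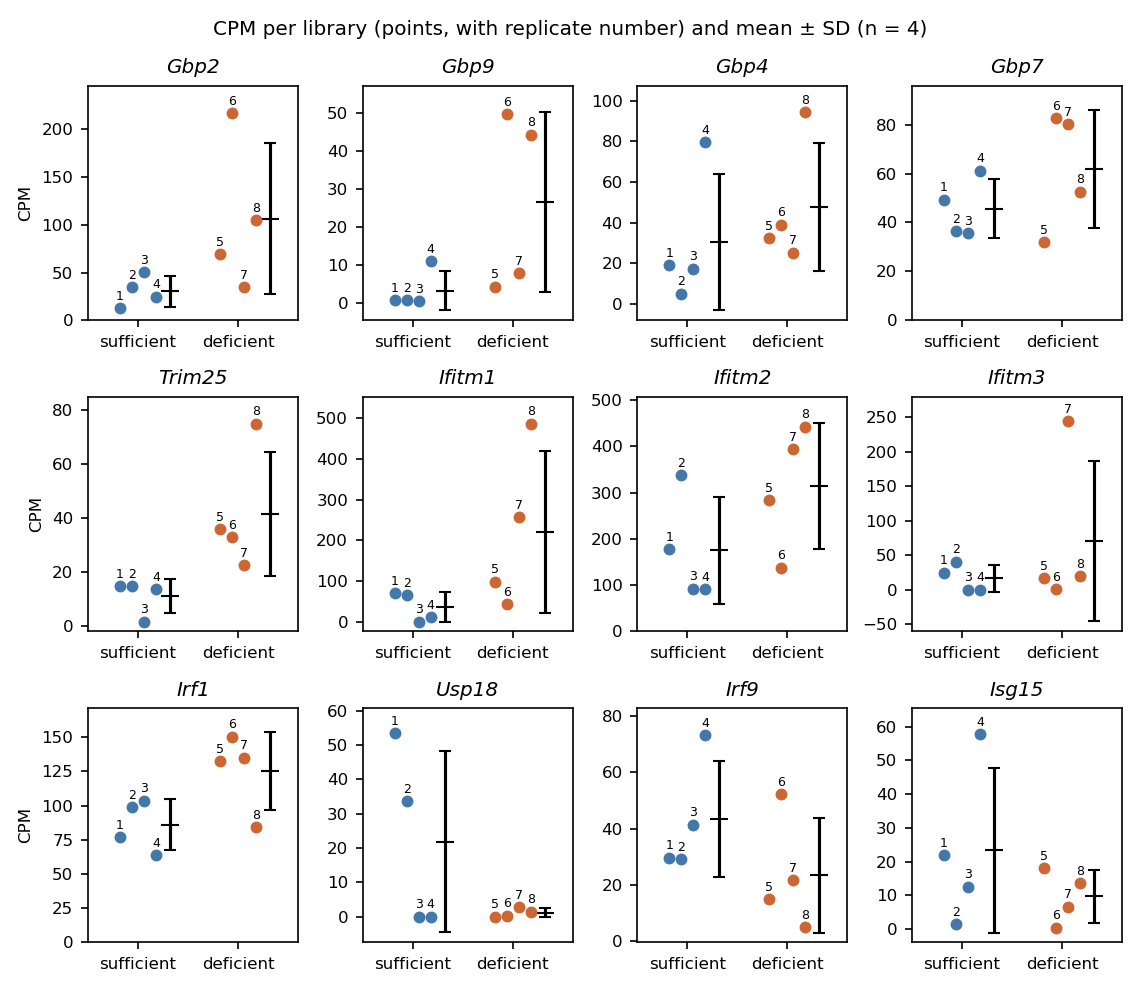
CPM of 12 genes of the family in each library (points with the replicate number, blue sufficient and orange deficient) with mean ± SD (bars, n = 4 per group; a bar may reach below 0 where the SD exceeds the mean). Trim25 alone has no overlap between the groups; for Usp18 the high sufficient values come from replicates 1 and 2, and for Ifitm3 the high deficient value comes from replicate 7.

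Summed over all 41 genes, the level was 2406, 2915, 2310 and 2425 CPM in sufficient and 3433, 3137, 2946 and 3800 CPM in deficient libraries. The groups did not overlap, and Ifngr1 made up much of each sum. Without Ifngr1 the sums were 1239, 1496, 1139 and 1220 CPM against 1582, 1707, 2042 and 2233 CPM. Without Ifngr1 and the 3 IFITM genes they were 967, 1053, 1047 and 1118 CPM against 1185, 1526, 1147 and 1285 CPM. That gap was narrow, from 1118 to 1147 CPM, and the groups overlapped once the guanylate-binding protein sums given above were taken off as well. With Ifngr1 alone left out, the groups were also apart in sums on unscaled library totals, at 1094 to 1409 CPM against 1658 to 2265 CPM. No test is given for these sums, and how often sums over other genes separate was not computed. Summed NK and ILC1 markers were 52.6, 104, 128 and 246 CPM in sufficient and 589, 187, 182 and 290 CPM in deficient libraries, and without Ncr1, which ILC3s can express, 49.3 to 63.0 CPM against 22.7 to 146 CPM. Macrophage and neutrophil markers were 9.50, 0.901, 21.7 and 43.6 CPM against 332, 11.6, 725 and 5.24 CPM, the 2 highest sums being mostly S100a8 and S100a9. The part of such cells in the sums was not tested.

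The interferon genes that were looked at were almost unread in the sorted cells. These 10 genes outside the 41 were Ifna1, Ifna2, Ifna4, Ifna5, Ifnb1, Ifne, Ifnk, Ifnl2, Ifnl3 and Ifng. Of them, 9 had 0 counts in all 8 libraries, and other interferon genes were not looked at. Ifng had 17.0 CPM in deficient replicate 5, 0.0389 CPM in sufficient replicate 4 and 0 elsewhere. Deficient replicate 5 also had the highest summed NK and ILC1 markers (589 CPM), of which Ncr1 made up 443 CPM. Without Ncr1 the sum there was 146 CPM, with Gzma at 58.8 CPM. Of the rest of that list, Eomes was at 0.0565 CPM and Prf1 at 0 in deficient replicate 5. Klrb1c was at 45.8, Gzmb at 33.7 and Klre1 at 7.29 CPM there. Each of these was higher in another library, at up to 47.8, 38.7 and 15.5 CPM. In deficient replicate 5, 5 genes of the list reached 1 CPM, against 2 or 3 in each other library. Summed T cell markers were highest there as well, at 247.5 CPM against 72.6 to 202 CPM in the other libraries. Trac was at 54.3 and Cd3d at 15.6 CPM, each its highest value of the 8 libraries. Cd3g, Trbc1 and Trbc2 were each higher in another library, Cd3e was at 0.0283 CPM and Cd5 at 0. Ifngr1 was highest in deficient replicate 5 too. Whether other lymphocytes account for these reads was not tested.

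Other genes of the pathway, 91 in all with 58 tested, were compared in the same fit, and 0 of the 58 passed. At an unadjusted p under 0.05 there were 3 of the 58, beside 4.1% of all tested genes, and the groups did not overlap for 3 of the 58, beside 4.36%. DESeq2 called 3 of the 91 on all genes with a count, where it called 2.09% of all genes higher and 1.17% lower, and 1 on the genes tested by edgeR, and limma-voom called 0. These counts are near the shares over all genes. Fitted folds were above 0 for 36 and below 0 for 22, with a median log2 fold of 0.12 (-0.10 without deficient replicate 6). All 10 genes of receptor signalling were tested, 5 above and 5 below 0. Jak1, a kinase of both receptors, had means of 602 ± 169 CPM (sufficient) and 565 ± 337 CPM (deficient). Ptpn6, which encodes the phosphatase SHP-1, a brake on JAK signalling, had the smallest p of the 58. It had 0, 0.041, 0.0714 and 0.0389 CPM in sufficient and 18.1, 7.45, 6.48 and 6.01 CPM in deficient libraries, so every deficient library was above every sufficient one. That is 4 counts against 1241, a scaled ratio of 255 (99.3 to 937 by counting error). Its log2 fold was 7.81 (SE 1.72) with an adjusted p of 0.515 in edgeR's quasi-likelihood test and an exact permutation p of 0.0286. With DESeq2 the adjusted p of Ptpn6 was 0.000174 on the genes tested by edgeR and 2.66e-12 on all genes with a count. Tlr3 and Cgas, 2 sensors of nucleic acid too low for the edgeR test, had adjusted p values of 0.00267 and 0.0135 in DESeq2 on all genes with a count, Tlr3 higher and Cgas lower in deficient libraries. Tlr3 was at 0, 0.041, 0.0357 and 0 CPM in sufficient and 15.4, 0, 5.24 and 6.32 CPM in deficient libraries. Cgas was at 0.0388, 7.62, 1.535 and 0.0779 CPM against 0.0283, 0.0376, 0 and 0 CPM. Most reads of Cgas thus came from sufficient replicate 2, which also held 1340 CPM of epithelial markers.

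Socs1, the feedback inhibitor of both interferon receptors, had a fitted fold below 0. It had 43.1, 25.5, 25.7 and 33.6 CPM in sufficient and 24.4, 12.4, 12.1 and 12.02 CPM in deficient libraries, without overlap. The log2 fold was -1.07 (SE 0.82), with an unadjusted p of 0.224 and an adjusted p of 0.9999 in edgeR's quasi-likelihood test; the exact permutation p of 0.0286 restates the lack of overlap. Tyk2, the kinase bound to IFNAR1, had 5.76 ± 8.08 against 21.0 ± 22.6 CPM, with a fitted log2 fold of 1.86 that was -0.49 in limma-voom. Il10rb, the shared chain of the interferon lambda receptor, had 4.19, 12.7, 0.0357 and 43.6 CPM against 74.2, 19.9, 14.8 and 3.38 CPM, and the partner chain did not pass the expression filter. Of 12 adaptors and kinases of nucleic acid sensing, 6 were tested, 2 above and 4 below 0. Tbk1, the kinase that activates IRF3, had 161 ± 31.6 and 129 ± 83.2 CPM, Sting1, which relays DNA sensing, 35.9 ± 29.8 and 26.9 ± 16.9 CPM, and Myd88, the adaptor of Toll-like receptors, 18.7 ± 22.8 and 9.16 ± 9.02 CPM.

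Of 25 further genes known to be induced by IFN-gamma, 21 were tested, 14 above and 7 below 0, with a median log2 fold of 0.25. Psmb9, a catalytic subunit of the immunoproteasome, had 11.4, 66.9, 16.7 and 43.9 CPM in sufficient and 156, 40.2, 137 and 145 CPM in deficient libraries. Deficient replicates 5, 7 and 8 were above every sufficient library and replicate 6 was among them (34.7 ± 25.8 against 120 ± 53.5 CPM; log2 fold 1.78, SE 0.67; unadjusted p = 0.0233 in edgeR's quasi-likelihood test). Tapbp (tapasin, which loads peptide onto class I molecules), named after its values were seen, had 8.41, 26.3, 61.8 and 38.7 CPM against 65.5, 69.9, 70.7 and 75.8 CPM, without overlap. Its log2 fold was 1.06 (SE 0.64). Iigp1, a GTPase that attacks parasite vacuoles and is strongly induced by IFN-gamma, had a fitted fold below 0, at 69.1, 136, 133 and 315 CPM in sufficient and 76.3, 68.6, 43.0 and 98.0 CPM in deficient libraries. Its means were 163 ± 106 and 71.5 ± 22.7 CPM (log2 fold -1.19, SE 0.48, unadjusted p = 0.0339 in edgeR's quasi-likelihood test; -0.66 without sufficient replicate 4). Casp1, the inflammasome protease, had 383 ± 104 and 233 ± 114 CPM. Genes induced by the same cytokine therefore had fitted folds of both signs in these libraries.

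Of 33 further type I interferon-induced genes, 21 were tested, with 14 above and 7 below 0 and a median log2 fold of 0.13. Ifi203, an interferon-inducible DNA-binding protein, had means of 128 ± 20.9 CPM (sufficient) and 65.2 ± 57.0 CPM (deficient) (log2 fold -0.98). Sp100, a nuclear body protein, had 51.3 ± 43.0 and 29.2 ± 21.98 CPM (log2 fold -0.81). Helz2 had 96.3 ± 24.97 and 136 ± 88.3 CPM, and its log2 fold of 0.50 was -0.080 without sufficient replicate 1 and deficient replicate 6.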

How the data were processed

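RNA was sequenced from 8 libraries of sorted CCR6+ ILC3s, made with a SMARTer low-input cDNA kit, per the labels' protocols. CASAVA 1.8.2, STAR 2.3.0 and mm10 are named in the submitters' processing notes. For the counter, its annotation, strand setting and multiply mapped reads, nothing is given in the sources used here. The authors deposited whole-number read counts per Entrez gene, without normalization. Of 27179 rows, 25275 were matched to a symbol (RefSeq, GRCm38.p6) and 7889 had 0 counts.

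Counts were tested with edgeR 4.0.16 in R 4.3.3 (TMM, filterByExpr by group, quasi-likelihood F test, Benjamini-Hochberg adjusted p under 0.05 over 8878 genes). CPM used TMM-scaled library sizes, and RPKM used exon lengths of GENCODE M21. Standard errors came from the F statistic. Permutation tests were exact and two-sided on log2(CPM + 1). Marker sums were descriptions. A group's label came from the sample titles, and p-values measure spread between mice. The edgeR step was tested on simulated data. Alternatives were RLE, upper-quartile and no scaling, DESeq2 1.42.0, limma 3.58.1 voom with quality weights, other filters and each library left out. Leaving out replicates 1 and 6, or 2 and 7, was added after the data were seen.

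Members and lists were chosen with earlier results of these data known. Named genes were the 12 with the smallest p, all receptors and regulatory factors, those without overlap, and up to 3 per pathway list by smallest p. The rest are given by levels. Of the marker and pathway genes, 2 were counted in the sums and fits but are not reported here.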

Additional observations from a re-analysis of the deposited data

Results flagged for a closer look

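In 15 of 98 groups of 4 libraries (15.3%), 1 library stood far from the other 3 by the size of its gap to the nearest one relative to the whole range. Over all tested genes this held for 2312 of 17751 groups (13.0%), so the genes here were near the background; for normally distributed values chance gives about 1 in 20. Of the 15, 3 each were in sufficient replicates 2 and 4 and deficient replicate 6, 2 in deficient replicate 5 and 1 in each other library.

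Among sufficient libraries, replicate 1 was high for Gbp3 (18.2 CPM against 0 to 0.0357). Replicate 2 was low for Zbp1 (22 CPM against 46.1 to 49.9), high for Ifngr1 (1419 CPM against 1167 to 1206) and high for the summed RNA sensors (150 CPM against 48.9 to 64.2). Replicate 3 was low for Trim25 (1.57 CPM against 13.5 to 14.7). Replicate 4 was high for Gbp9 (10.9 CPM against 0.321 to 0.62), Tyk2 (17.8 CPM against 0.999 to 2.79) and Helz2 (133 CPM against 80.7 to 88.9).

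Among deficient libraries, replicate 5 was high for Ptpn6 (18.1 CPM against 6.01 to 7.45) and Socs1 (24.4 CPM against 12.02 to 12.4). Replicate 6 was low for Bst2 (38.2 CPM against 141 to 153) and Psmb9 (40.2 CPM against 137 to 156), and high for Ifnar1 (227 CPM against 51.6 to 71.8). Replicate 7 was high for Ifitm3 (244 CPM against 0.376 to 19.5), and replicate 8 was low for Ddx58 (3.00 CPM against 42.3 to 48.4).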

How the results depend on the processing

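No paired analysis was possible because replicate numbers run from 1 to 8 and no number is shared between the groups. Over the planned and added alternatives, 501 of 519 single-gene values kept their direction and their side of the threshold. Of the others, 16 changed sign and 2 came to pass the threshold. None of these genes passed in the main fit and many were picked by smallest p, so this share says little about robustness. Of 180 counts and summary values, 164 stayed close to the main fit. A count was close if within a set ratio of the main count. A median log2 fold was close if it moved by less than a pooled SD between libraries (0.184 for the family, 0.476 for pathway genes). The pathway median could therefore change sign, as at -0.10, and still count as close. DESeq2 on all genes with a count called 240 genes higher and 134 lower, with 1 of the family and 3 pathway genes passing and 36 pathway genes with values below 0. On the genes edgeR tested it called 49 higher and 42 lower, with 1 pathway gene, Ptpn6. limma-voom gave 7 genes of the family values below 0 in place of 11, and Irf7 (0.079), Tyk2 (-0.49) and Sting1 (0.42) changed sign. Without a filter edgeR called 1 gene higher and 1 lower, none of the family, and 35 pathway genes had values below 0. Without replicates 1 and 6, 34 pathway genes did, and Irf3 (-0.23), Ifngr2 (-0.10), Sting1 (0.40) and Helz2 (-0.080) changed sign. Without replicates 2 and 7, Myd88 did (0.37). Leaving out 1 library at a time, 0 genes passed higher and 0 to 2 lower (2 without deficient replicate 6), the median log2 fold of the family was 0.14 to 0.35 and that of the pathway genes -0.10 to 0.35, and ranges that crossed 0 were Ifitm3 -0.41 to 3.08, Ifngr2 -0.22 to 0.92, Irf3 -0.086 to 0.72, Sting1 -0.80 to 0.066, Myd88 -1.91 to 0.27, Il10rb -0.25 to 2.32 and Helz2 -0.019 to 0.77. The causes were not tested. Without scaling factors the median log2 fold of all tested genes was 0.11 in place of 0.02. Totals of at least 25328231 counts set the limits given for a count of 0, which cover counting error only, since reads of amplified cDNA are not independent molecules.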

Other observations

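The immunity-related GTPases, which IFN-gamma induces and which act with guanylate-binding proteins on vacuoles of intracellular microbes, varied widely between libraries. The summed level of Irgm1, Irgm2, Igtp, Iigp1, Tgtp1 and Ifi47 was 231, 416, 841 and 1489 CPM in sufficient and 700, 966, 317 and 965 CPM in deficient libraries, which overlapped. Igtp had 13.7, 11.2, 161 and 306 CPM against 180, 232, 63.8 and 150 CPM, and Irgm1 had 2.40, 0.0819, 71.6 and 101 CPM against 33.7, 182, 26.5 and 73.2 CPM. Both genes were lowest in sufficient replicates 1 and 2.

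Cxcl10, a chemokine induced by IFN-gamma that attracts T cells, was read in all 8 libraries, at 295 ± 101 CPM in sufficient and 293 ± 49.6 CPM in deficient libraries (SD, n = 4 each).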
